A study of Mus musculus with 6 samples.

Results

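The 33 genes described here make cholesterol, control its synthesis through the SREBP transcription factors, move and store it, and export it under the liver X receptors (LXRs). They were taken by gene symbol from the 55401 Ensembl identifiers of a deposited table of gene expression in mouse hematopoietic stem cells (HSCs), and all 33 were found, each under 1 identifier. HSCs had been sorted from bone marrow as CD48- CD150+ cells of the LSK compartment (lineage marker-negative, Sca-1-positive, c-Kit-positive). Controls (n = 3) were Emp1fl/fl, with floxed Emp1 alleles and no Cre, and the Emp1-deficient group (n = 3) was Emp1fl/fl,Tie2-Cre, where Emp1 encodes a small membrane protein of the PMP22 family. Both groups carried the floxed alleles, and no age or sex was given. The Tie2 promoter drives Cre in endothelial cells and in blood-forming cells from development onwards, and because the controls carried no Cre, an effect of Cre itself and one of losing Emp1 cannot be told apart. Nothing states that each replicate was a mouse of its own, so the p-values speak of the spread among these libraries, which may be technical.

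Cholesterol is built in the endoplasmic reticulum (ER) from acetyl-CoA through mevalonate, isoprenoids, squalene and lanosterol. When ER sterol is low, SCAP carries the SREBP precursors to the Golgi, where proteases release the active factors. SREBP-2, the product of Srebf2, mainly drives cholesterol synthesis genes, and SREBP-1, the product of Srebf1, mainly drives fatty acid synthesis genes. When sterols are plentiful, INSIG proteins hold SCAP in the ER, while oxysterols activate the LXRs, which raise Abca1, Abcg1 and Srebf1. In blood stem and progenitor cells, ABCA1 and ABCG1 are known to restrain proliferation by exporting cholesterol.

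Expression values are FPKM, fragment numbers divided by transcript length and by library size, so levels can be compared between genes. Differences are given as the Emp1-deficient over control log2 fold change of FPKM + 1, fitted with limma over 15723 genes that reached 1 FPKM in at least 3 of the 6 libraries. All 33 cholesterol genes passed this filter. The targeted gene, Emp1, stood at 3.25, 2.64 and 4.32 FPKM in controls, and 0.58, 0.70 and 0.27 FPKM in the Emp1-deficient group, lower in every one (log2 fold change -1.53, SE 0.25, limma adjusted p = 0.0577). HSC genes were present throughout, among them Kit, Ly6a and Slamf1, with the 10 listed markers summing to 938.1 to 1144 FPKM in controls and 868 to 1079 FPKM in the Emp1-deficient group. Cd48, which the gate removes, was still read at 22.89 to 49.62 FPKM. Of the other gate-negative genes, Cd8a and Ms4a1 stayed under 1 FPKM in every library and Itgam stood between 4.42 and 5.91 FPKM. Cd4 stood at 3.36, 6.47 and 4.51 FPKM in controls, and between 0.57 and 1.16 FPKM in the Emp1-deficient group, lower without overlap (log2 fold change -1.56, SE 0.26, limma adjusted p = 0.0577). Its part in the results was not tested. Relative depth, set to 1 for control replicate 1, ran from 0.771 in control replicate 2 and Emp1-deficient replicate 1 to 1.83 in Emp1-deficient replicate 3. Between 14334 and 18048 identifiers per library reached 1 FPKM, fewest in Emp1-deficient replicate 3 and most in control replicate 2. Absolute depth is unknown, so no counting interval or detection floor is given.

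Messages of cholesterol synthesis enzymes stood in overlapping ranges in HSCs of both genotypes, except for Ggps1 and Lbr. Both were slightly higher without overlap, at a limma adjusted p of 0.313 (Ggps1) and 0.622 (Lbr). For Lbr the highest control read 133.91 FPKM and the lowest Emp1-deficient library 134.18 FPKM. Srebf1 had an Emp1-deficient mean 50.6% below the control mean, and Abca1 (51.3% lower) and Nr1h3 (40.4% lower), of cholesterol efflux, also lay below all controls. None of the 33 genes passed limma's test at an adjusted p under 0.05, a threshold that 0.267% of all tested genes passed (0.159% higher and 0.108% lower). An unadjusted p under 0.05 was found for 0 members that were higher and for 3 that were lower, which is 9.09% of members against 9.72% of all tested genes in the lower direction (6.5% in the higher). The libraries of the genotypes did not overlap for 2 members that were higher (6.06%) and 3 that were lower (9.09%), against 8.91% and 13.2% of all tested genes. These shares are near or under the background, so nothing is read from them about the 33 genes as a group. The median log2 fold change of the 33 was 0.095, against -0.046 over all tested genes.

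**Figure D1:**
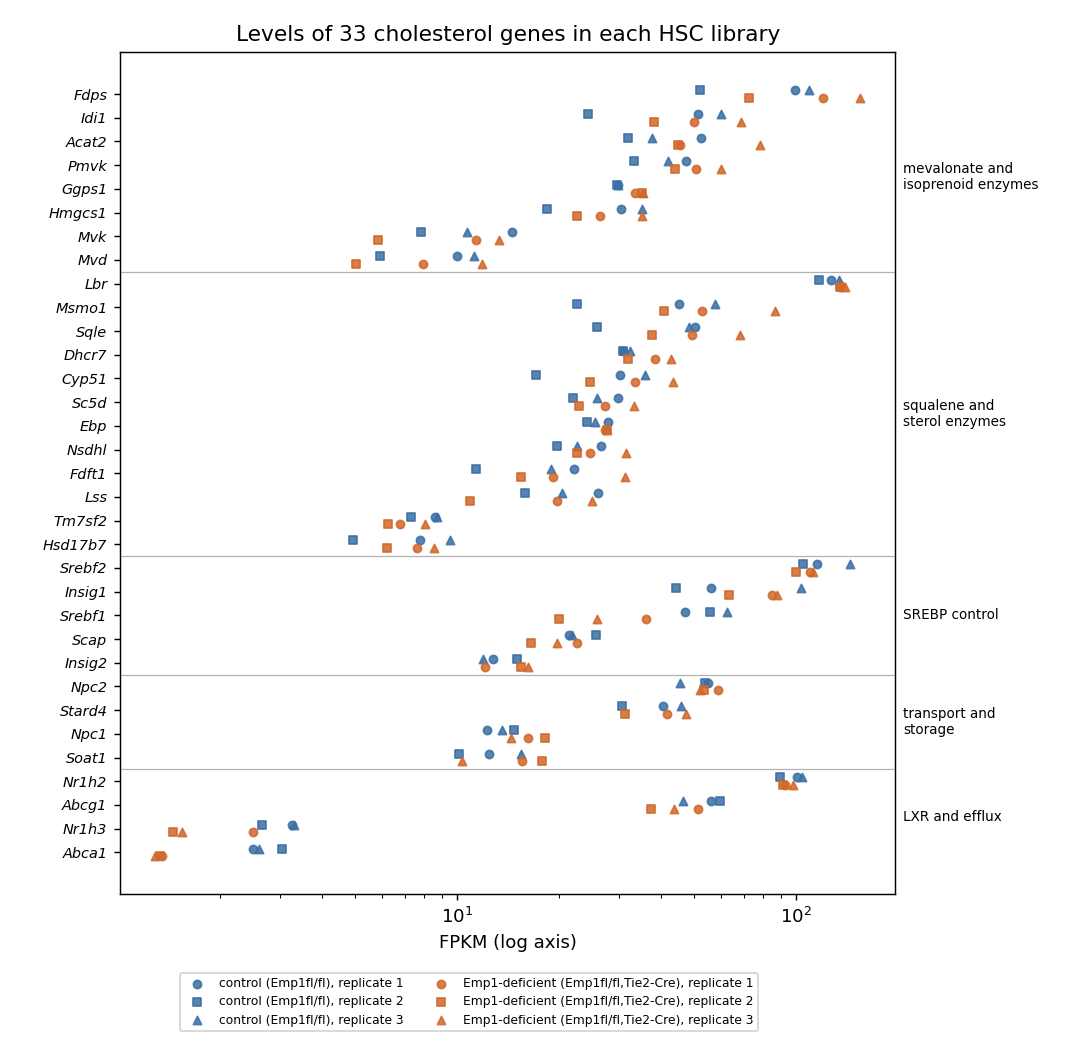
FPKM on a log axis of each of the 33 genes in each library, with controls in blue and Emp1-deficient libraries in orange, and a marker shape per replicate number. Lbr and Srebf2 lie highest and Abca1 and Nr1h3 lowest, and in most enzymes the squares (replicate 2) lie furthest left in both genotypes.

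The first 8 enzymes lead from acetyl-CoA to the isoprenoids. Acat2 condenses acetyl-CoA and Hmgcs1 makes HMG-CoA. Mvk, Pmvk and Mvd phosphorylate and decarboxylate mevalonate, Idi1 isomerizes the resulting isopentenyl unit, Fdps makes farnesyl diphosphate, and Ggps1 makes geranylgeranyl diphosphate, used to attach lipid anchors to proteins. Their mean levels over the 6 libraries ran from 8.66 FPKM (Mvd) to 101 FPKM (Fdps). Of the 8, 6 had a positive log2 fold change, with a median of 0.23.

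Hmgcs1 stood at 30.49, 18.45 and 35.07 FPKM in controls, and 26.31, 22.55 and 35.10 FPKM in the Emp1-deficient group. The genotypes overlapped and the means were the same to 3 digits (28.0 ± 8.58 and 28.0 ± 6.44 FPKM, SD, n = 3 each), with a log2 fold change of 0.024 and a 95% interval from -0.56 to 0.61. Fdps, the most abundant of the 8, read 99.14, 52.12 and 108.65 FPKM in controls and 120.10, 72.77 and 154.28 FPKM in the Emp1-deficient group. Its lowest value in each genotype was again in the library numbered 2, and the log2 fold change of 0.42 had an interval from -0.62 to 1.45. Part of its exonic sequence, 26.7%, is shared with the annotated gene Gm43738, so the assignment of its reads is less certain. Idi1 read 51.17, 24.40 and 60.15 FPKM in controls and 49.92, 38.10 and 68.54 FPKM in the Emp1-deficient group, with the same low replicate 2 in both. Acat2 read 52.36, 31.84 and 37.63 FPKM and then 45.34, 44.74 and 78.17 FPKM, so its higher Emp1-deficient mean (56.1 against 40.6 FPKM, log2 fold change 0.44, SE 0.26) came mainly from replicate 3. Its near copy Acat3 was low, between 0.19 and 1.33 FPKM in the 6 libraries, and how reads shared by both copies were assigned is not known.

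Ggps1 behaved differently from the other enzymes of this stretch. It read 29.83, 29.67 and 29.89 FPKM in controls and 33.46, 35.11 and 35.32 FPKM in the Emp1-deficient group, so the genotypes did not overlap. The log2 fold change was 0.21 (SE 0.094, limma adjusted p = 0.313), and no low value appeared in replicate 2. Pmvk averaged 40.7 ± 7.05 and 51.5 ± 8.0 FPKM (log2 fold change 0.34, SE 0.16, limma adjusted p = 0.332) with overlapping libraries. Mvk averaged 11.01 FPKM in controls and 10.2 FPKM in the Emp1-deficient group, and Mvd 9.05 and 8.26 FPKM, differences well inside their SDs of 2.77 to 3.86 FPKM.

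The next 12 enzymes turn farnesyl diphosphate into cholesterol. Fdft1 makes squalene, Sqle adds oxygen to it in a rate-limiting step, and Lss closes the ring to lanosterol. Cyp51, Tm7sf2, Lbr, Msmo1, Nsdhl, Hsd17b7, Ebp, Sc5d and Dhcr7 then remove methyl groups and shift, introduce or reduce double bonds. Mean levels ran from 7.43 FPKM (Hsd17b7) to 130.9 FPKM (Lbr), and 10 of the 12 had a positive log2 fold change, with a median of 0.15.

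Sqle read 50.43, 25.92 and 48.38 FPKM in controls and 49.38, 37.56 and 68.17 FPKM in the Emp1-deficient group. The genotypes overlapped, and the log2 fold change of 0.33 (SE 0.32) had an interval from -0.46 to 1.11. Msmo1, a sterol methyl oxidase, had the largest fold change of the enzymes and also the widest interval. It read 44.98, 22.58 and 57.50 FPKM in controls and 52.74, 40.77 and 86.70 FPKM in the Emp1-deficient group (log2 fold change 0.54, SE 0.45, interval -0.62 to 1.71). Cyp51, which removes a methyl group of lanosterol, averaged 27.6 ± 9.58 and 33.9 ± 9.38 FPKM, and Fdft1 17.5 ± 5.52 and 21.97 ± 8.31 FPKM. Fdft1 shares 18.3% of its exonic bases with Ctsb, which encodes an abundant lysosomal protease.

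Lbr and Tm7sf2 encode enzymes for the same step, the reduction of the sterol double bond at carbon 14, and the former also anchors chromatin at the nuclear envelope. Lbr read 126.85, 117.01 and 133.91 FPKM in controls and 134.18, 134.32 and 139.19 FPKM in the Emp1-deficient group, without overlap but with a log2 fold change of 0.11 (SE 0.093, limma adjusted p = 0.622). Tm7sf2 was far lower, at 8.61, 7.29 and 8.75 FPKM and at 6.79, 6.26 and 8.07 FPKM, and leaned the other way (log2 fold change -0.20, SE 0.16). HSCs of both genotypes thus carried much more message of Lbr than of Tm7sf2. Dhcr7, which catalyses the last reduction to cholesterol, averaged 31.3 ± 0.787 and 37.7 ± 5.44 FPKM (log2 fold change 0.25, interval -0.028 to 0.52). Lss was lower on average, with 20.8 and 18.5 FPKM, and Ebp, Sc5d, Nsdhl and Hsd17b7 differed by 0.037 to 0.18 on the log2 scale.

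Over all 20 enzymes 16 had a positive log2 fold change, 80.0% against 43.1% of all tested genes, with a median of 0.20, yet 0 of them passed limma's test and 0 had an unadjusted p under 0.05. The lean rested on a few libraries. Without control replicate 2 there were 12 of 20 with a positive fold change and a median of 0.031, without Emp1-deficient replicate 3 there were 13 and a median of 0.068, and without Emp1-deficient replicate 2 there were 19 and a median of 0.25.

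**Figure D2:**
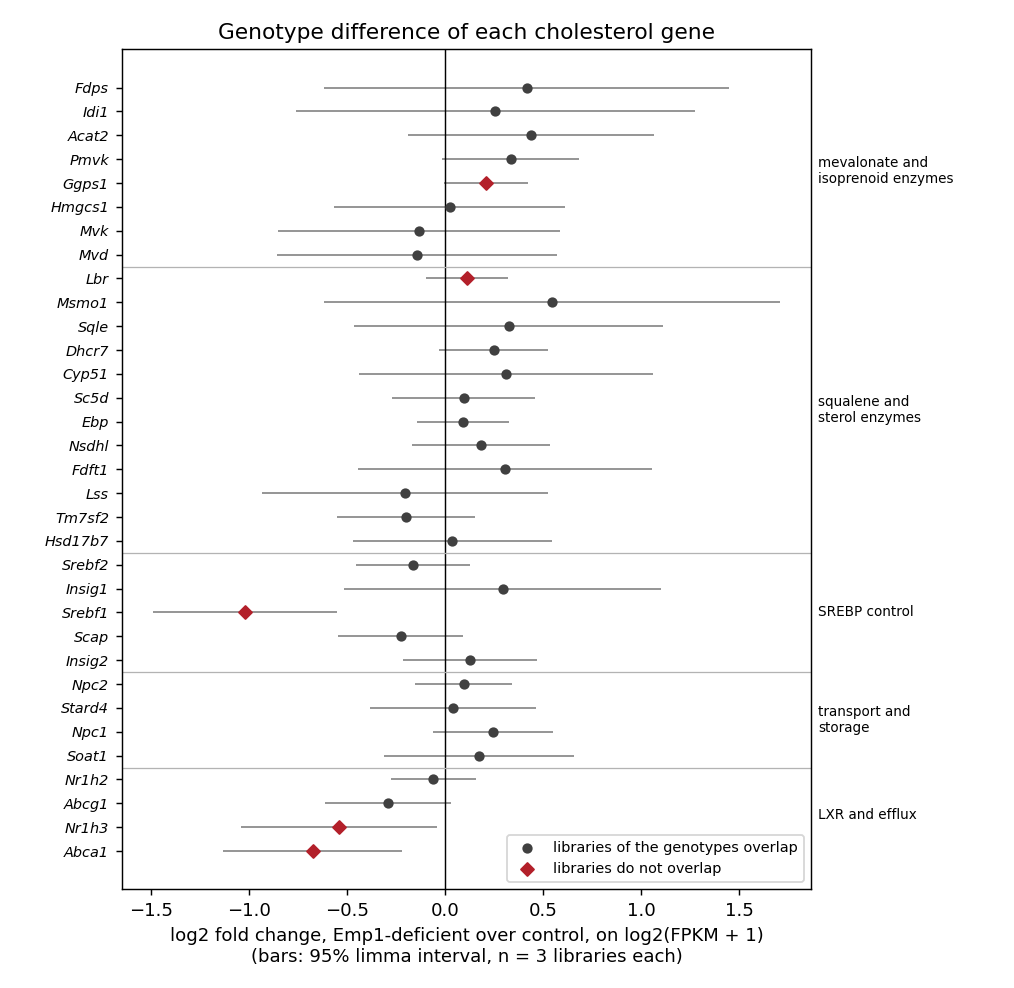
Log2 fold change of each of the 33 genes, Emp1-deficient over control, on the log2(FPKM + 1) scale, with 95% limma intervals as bars and red diamonds for genes whose libraries do not overlap between genotypes. The intervals of 30 genes include 0, while those of Srebf1, Abca1 and Nr1h3 lie below it.

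The clearest pattern among the enzymes ran between libraries of one genotype. In 16 of 20 enzymes (80.0%) the library numbered 2 was the lowest of the controls and the library numbered 2 was also the lowest of the Emp1-deficient group. The same held for 8.08% of all tested genes, for 9.90% of those with a mean of at least 5 FPKM, and for 5 of the 13 other members, namely Srebf2, Insig1, Stard4, Nr1h2 and Nr1h3. The 4 enzymes without this order were Ggps1, Lbr, Ebp and Dhcr7. The count was 15 after rescaling to TPM, 17 with quantile normalization and 19 with median-ratio scaling. Relative to each gene's mean over the 6 libraries, the median enzyme stood at 0.13, -0.43 and 0.087 in control replicates 1, 2 and 3 and at 0.053, -0.22 and 0.37 in Emp1-deficient replicates 1, 2 and 3, on the log2 scale. Over all tested genes these medians ran only from -0.059 to 0.059. All 20 enzymes were below their own mean in control replicate 2 and all 20 were above it in Emp1-deficient replicate 3, which held the highest value of its genotype for each of them.

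Summed over the 20 enzymes, the level was 766, 522 and 775 FPKM in controls and 786, 649 and 1002 FPKM in the Emp1-deficient group. The highest control exceeded the lowest by a median factor of 1.75 per enzyme, and by up to 2.55 in Msmo1, against a median of 1.21 over genes with a mean of at least 5 FPKM. In Emp1-deficient libraries the median factor was 1.65, against 1.26. Over all tested genes, deviations of same-numbered libraries correlated only at -0.11, 0.086 and -0.052. Whether libraries of the same number were handled together is not stated, and these correlations cannot decide it. Of 6 marker lists for other cell types, 3 (monocyte and macrophage, neutrophil, megakaryocyte) also had their lowest sums in the libraries numbered 2, and 3 (erythroid, endothelial, B and plasma cell) did not. The 8 neutrophil genes summed to 176, 85.04 and 348 FPKM in controls and to 147, 80.5 and 409.6 FPKM in the Emp1-deficient group, and none was at 0. Of these, 4 were higher and 4 lower in the Emp1-deficient mean. Sums of the 7 megakaryocyte genes were 759, 691.5 and 906 FPKM in controls and 747, 590.2 and 968 FPKM in the Emp1-deficient group, with 2 genes higher, 5 lower and none at 0. The part of such cells, and of depth, in the enzyme pattern was not tested. In bulk libraries fewer cells of a type and less RNA per cell cannot be told apart.

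**Figure D3:**
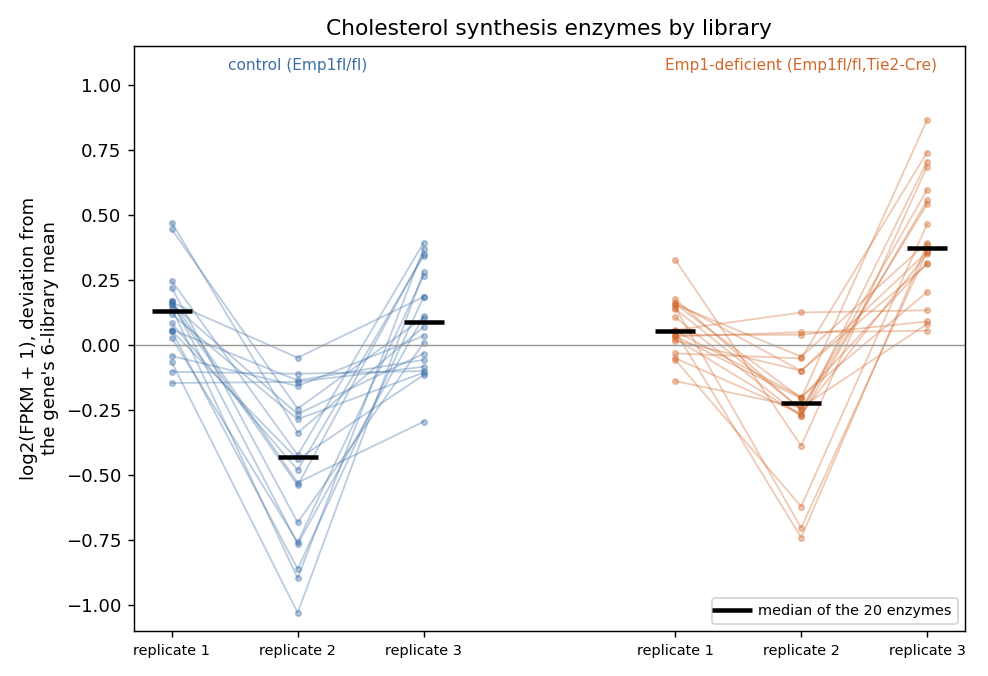
Deviation of each of the 20 enzymes from its 6-library mean, on the log2(FPKM + 1) scale, in each library. Thin lines join the values of 1 gene within a genotype and black bars mark the median enzyme, at -0.43 in control replicate 2 and 0.37 in Emp1-deficient replicate 3.

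Promoters of these enzymes share sequence features that the choice of genes did not use. RefSeq windows of the 250 bases before the annotated start (GRCm38.p6) were given for 17 of the 20 enzymes and for 10 of the 13 other members. The letters CCAAT, the core of the element bound by NF-Y, a factor known to act together with SREBPs, were found on either strand in 16 of the 17 enzymes (94.1%), in 6 of the 10 others, and in 37.5% of all 27025 genes with a window. At least 2 copies were found in 11 of the 17 (64.7%), against 11.5% of all genes. GGGCGG, an Sp1 motif, was found in 15 of the 17 (88.2%), in 7 of the 10 others (70%), and in 35.4% of all genes. CACGTG, an E-box, was found in 3 of the 17 (17.6%), in 3 of the 10 others (30%), and in 6.86% of all genes. The E-box was thus no more frequent in the enzymes than in the other members. A strict sterol regulatory element, TCACNCCAC, was found in 1 of the 17, Hmgcs1, and in 1.22% of all genes. All were searched on both strands, and genes with several windows counted once. The 27025 genes include many outside the 15723 tested, so their shares are not those of genes expressed in HSCs. At least 2 copies of CCAAT were found in 7 of the 13 enzymes that were lowest in both libraries numbered 2 and in 4 of the 4 that were not, so the number of copies did not follow that order. Of the former, 5 promoters with 1 to 5 copies are shown as examples, chosen after the sequences were seen. Capitals mark CCAAT or its reverse complement and, in Hmgcs1, the sterol regulatory element that starts 137 bases before the transcription start, and no marked motifs overlap. They lie at chr13:119690101-119690350 (plus strand) for Hmgcs1, chr5:114444019-114444268 (plus strand) for Mvk, chr13:8885356-8885605 (plus strand) for Idi1, chr8:64733579-64733828 (minus strand) for Msmo1 and chr5:4104698-4104947 (minus strand) for Cyp51, each written 5′ to 3′ towards the start.
Hmgcs1: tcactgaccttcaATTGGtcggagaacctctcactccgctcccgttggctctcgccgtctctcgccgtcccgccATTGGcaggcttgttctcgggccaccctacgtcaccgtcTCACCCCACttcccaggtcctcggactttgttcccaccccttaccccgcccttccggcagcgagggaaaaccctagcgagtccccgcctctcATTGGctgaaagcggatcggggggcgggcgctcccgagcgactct
Mvk: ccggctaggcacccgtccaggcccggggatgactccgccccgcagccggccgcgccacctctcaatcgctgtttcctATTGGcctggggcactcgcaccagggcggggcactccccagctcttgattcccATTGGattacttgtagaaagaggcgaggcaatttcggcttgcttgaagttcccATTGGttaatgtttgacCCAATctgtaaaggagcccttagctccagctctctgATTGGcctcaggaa
Idi1: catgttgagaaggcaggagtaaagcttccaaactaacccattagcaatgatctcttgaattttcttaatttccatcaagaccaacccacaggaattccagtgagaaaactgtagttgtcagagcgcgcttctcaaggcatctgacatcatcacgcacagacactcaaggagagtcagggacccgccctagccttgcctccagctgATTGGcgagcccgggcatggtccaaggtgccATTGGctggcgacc
Msmo1: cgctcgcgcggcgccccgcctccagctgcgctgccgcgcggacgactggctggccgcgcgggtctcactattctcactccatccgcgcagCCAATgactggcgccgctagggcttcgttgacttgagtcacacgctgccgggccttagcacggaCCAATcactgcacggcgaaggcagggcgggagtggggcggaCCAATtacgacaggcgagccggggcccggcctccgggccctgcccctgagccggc
Cyp51: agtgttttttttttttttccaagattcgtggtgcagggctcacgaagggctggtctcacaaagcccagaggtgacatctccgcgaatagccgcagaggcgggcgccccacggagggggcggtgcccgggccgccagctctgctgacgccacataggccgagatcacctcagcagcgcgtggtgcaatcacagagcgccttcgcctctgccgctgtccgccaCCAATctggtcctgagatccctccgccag
Hmgcs1 thus showed 3 CCAAT motifs, Mvk 5, Idi1 2, Msmo1 3 and Cyp51 1 in these windows. A match of letters is a description and shows no binding.

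Among the 5 genes of SREBP control, Srebf1 (chr11:60199089-60222581, minus strand, GRCm38 gene coordinates here and below) stood apart from the rest. It read 47.01, 55.64 and 62.56 FPKM in controls and 35.99, 19.93 and 25.77 FPKM in the Emp1-deficient group. Every Emp1-deficient value lay below every control value, with Emp1-deficient replicate 1 closest to the controls. The mean was 50.6% lower (55.1 ± 7.79 and 27.2 ± 8.13 FPKM, SD, n = 3 each), with a log2 fold change of -1.02 (SE 0.20, 95% interval -1.49 to -0.55). With a limma adjusted p of 0.0857 it missed the threshold, at rank 181 of the 15723 genes by p. In the same limma test it passed with array weights (adjusted p = 0.0460), when only coding genes with 400 bp or more of exon sequence were tested (adjusted p = 0.0345) and without Emp1-deficient replicate 1 (log2 fold change -1.24, adjusted p = 0.0270), over 17 alternatives whose adjusted p ranged from 0.0270 to 0.310. FPKM per gene do not separate the SREBP-1a and SREBP-1c transcripts.

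Srebf2, more abundant than Srebf1 in every library, read 114.91, 104.42 and 144.01 FPKM in controls and 110.08, 99.65 and 112.30 FPKM in the Emp1-deficient group. The genotypes overlapped, and the log2 fold change of -0.16 had an interval from -0.45 to 0.13. Scap read 21.39, 25.74 and 21.84 FPKM and then 22.58, 16.51 and 19.69 FPKM, with a log2 fold change of -0.23 (SE 0.14). Insig1, itself a target of SREBPs, read 55.87, 44.07 and 102.90 FPKM in controls and 84.89, 63.35 and 87.73 FPKM in the Emp1-deficient group, lowest in both libraries numbered 2 as the enzymes were (log2 fold change 0.29, interval -0.52 to 1.10). Insig2 was lower and followed another order, at 12.72, 15.02 and 11.93 FPKM and at 12.12, 15.47 and 16.15 FPKM (log2 fold change 0.13, SE 0.15).

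Srebf1 has 3 annotated starts in this table. The window before the one furthest downstream is shown with that of Abca1 because both genes were lower in Emp1-deficient HSCs without overlap and both are known LXR targets. The Srebf1 window lies at chr11:60210472-60210721 and the Abca1 window at chr4:53159896-53160145 (GRCm38.p6, minus strand, 5′ to 3′ towards the start). Capitals mark TGACC followed after 5 bases by TAACC, a form of the repeat bound by LXR with its partner RXR, and in Srebf1 also CCAAT on the reverse strand.
Srebf1: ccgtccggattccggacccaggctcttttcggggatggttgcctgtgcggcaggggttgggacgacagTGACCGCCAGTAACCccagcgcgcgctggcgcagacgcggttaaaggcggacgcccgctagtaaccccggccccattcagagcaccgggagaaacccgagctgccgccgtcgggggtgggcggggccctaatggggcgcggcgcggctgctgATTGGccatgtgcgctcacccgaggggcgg
Abca1: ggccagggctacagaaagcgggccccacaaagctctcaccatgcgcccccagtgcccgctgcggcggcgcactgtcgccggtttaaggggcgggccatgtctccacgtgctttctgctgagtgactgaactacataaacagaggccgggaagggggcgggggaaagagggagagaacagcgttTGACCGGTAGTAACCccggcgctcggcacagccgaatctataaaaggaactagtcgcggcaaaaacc
The repeat starts 182 bases before the start in Srebf1 and 67 before it in Abca1, and the windows of the other 2 Srebf1 starts do not hold it. This motif was chosen after the sequences had been seen, so its presence in these 2 windows is no test of enrichment. It was found in 2 of the 10 members other than enzymes, in 0 of the 17 enzymes, and in 12 of the 27025 genes with a window (0.0444%). None of this shows that LXR acted in these cells.

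All 4 genes of LXR signalling and efflux leaned lower, with a median log2 fold change of -0.42. Nr1h2, which encodes the widely expressed LXR-beta, was the abundant receptor, at 100.40, 89.40 and 103.97 FPKM in controls and 92.60, 91.12 and 97.81 FPKM in the Emp1-deficient group. Its genotypes overlapped (log2 fold change -0.059, interval -0.28 to 0.16). Nr1h3 (chr2:91184061-91202834, minus strand), which encodes LXR-alpha, best known from macrophages and liver, was low, at 3.27, 2.66 and 3.31 FPKM in controls, and 2.51, 1.45 and 1.55 FPKM in the Emp1-deficient group. The genotypes did not overlap, with a small gap between control replicate 2 and Emp1-deficient replicate 1 (log2 fold change -0.54, SE 0.22, limma adjusted p = 0.270).

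Abca1 (chr4:53030787-53159895, minus strand), the transporter that loads cholesterol onto lipid-poor apolipoprotein, was the lowest of the 33 genes. It read 2.5, 3.04 and 2.61 FPKM in controls and 1.35, 1.33 and 1.29 FPKM in the Emp1-deficient group, which lay close together and well below all controls. The mean was 51.3% lower (2.72 ± 0.285 and 1.32 ± 0.0306 FPKM), with a log2 fold change of -0.68 (SE 0.20, limma adjusted p = 0.160). Because both genes are low, the pseudocount shrinks their fold changes. They were -0.98 (Abca1) and -0.75 (Nr1h3) with a pseudocount of 0.1, and -0.29 and -0.24 with one of 5, and no alternative passed the threshold for either. Abcg1, which exports cholesterol to mature lipoprotein particles, was the main efflux message at 55.96, 59.55 and 46.46 FPKM in controls and 51.29, 37.27 and 43.67 FPKM in the Emp1-deficient group. Only Emp1-deficient replicate 1 reached into the control range (log2 fold change -0.29, SE 0.14, limma adjusted p = 0.355).

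Monocyte and macrophage genes leaned lower in part of the same libraries. Of 15 listed markers 13 had a lower Emp1-deficient mean and 2 a higher one, where 43.1% of all tested genes had a positive fold change. Among the markers 0 passed limma's test. Their sum was 559, 496 and 696 FPKM in controls and 605, 378 and 397 FPKM in the Emp1-deficient group. The most abundant, Lyz2, made up a large part of that sum and stood at 299, 267 and 268 FPKM and then 264, 279 and 249.9 FPKM. Of the 13 tested markers 2 were lower without overlap, a share near the 13.2% of all tested genes, so nothing is read from that count. They were Csf1r and Mrc1, receptors of macrophages named here, like C1qb, after their values were seen. Csf1r stood at 7.72, 6.92 and 11.68 FPKM and then 5.15, 4.03 and 2.24 FPKM, 56.6% lower on average (log2 fold change -1.04, SE 0.27, limma adjusted p = 0.123). Mrc1 stood at 6.46, 5.78 and 8.75 FPKM and then 5.35, 1.59 and 2.78 FPKM, 53.7% lower on average (log2 fold change -0.996, SE 0.31, limma adjusted p = 0.182). The 2 markers with a higher mean were Cd68 (log2 fold change 0.080, SE 0.39) and Ly6c2 (log2 fold change 0.35, SE 0.64). C1qb, of complement, stood at 62.6, 50.6 and 107 FPKM and then 80.7, 19.6 and 29.6 FPKM, so that Emp1-deficient replicate 1 lay among the controls for C1qb and below them for Csf1r and Mrc1. Marco and Cx3cr1 were under 1 FPKM in all libraries. The part of such cells in the lower values of Srebf1, Abca1 and Nr1h3 was not tested.

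**Figure D4:**
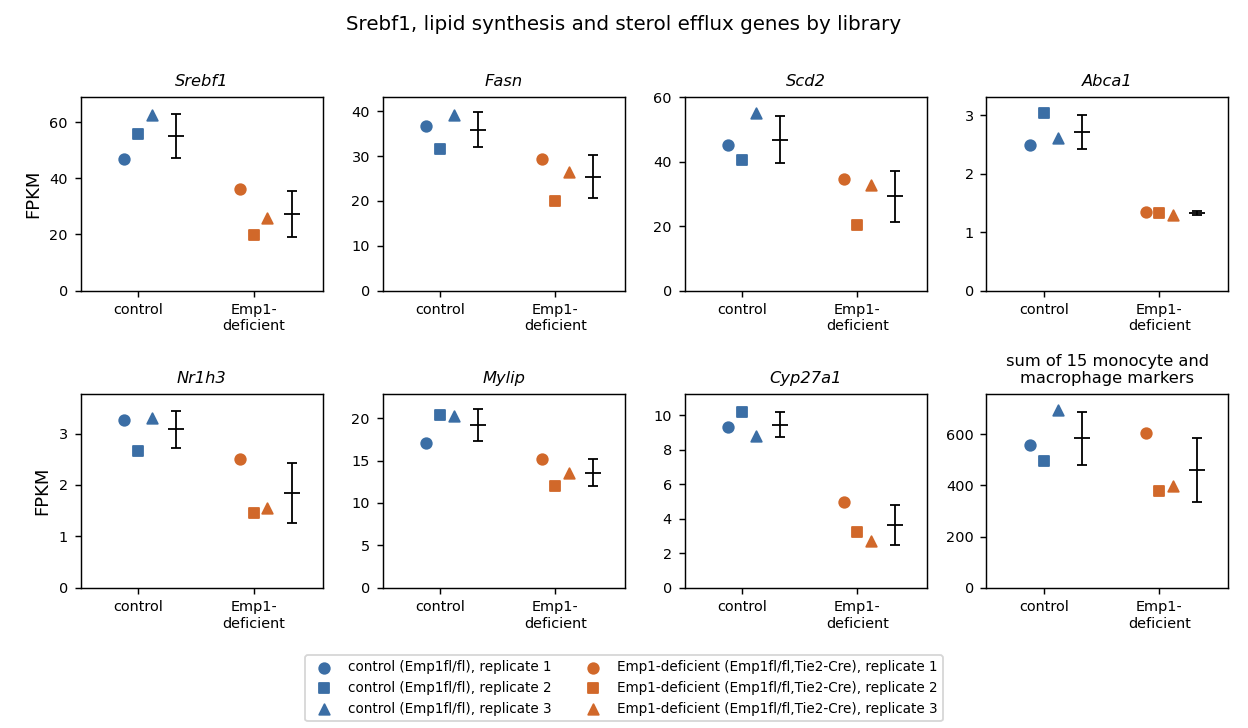
FPKM per library of Srebf1, the lipid synthesis genes Fasn and Scd2, the sterol genes Abca1, Nr1h3, Mylip and Cyp27a1, and the summed level of 15 monocyte and macrophage markers, with the mean and SD of 3 libraries beside the points. The 7 genes shown are all ones that were lower without overlap between genotypes, so their separation here follows from the choice. Abcg1, Nr1h2 and Acly, of the same lists and not shown, overlapped. The marker sum overlaps between genotypes, with Emp1-deficient replicate 1 at 605 FPKM, and Lyz2 makes up a large part of it.

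The 4 genes of intracellular transport and storage stayed close to control levels. Stard4, a soluble sterol carrier and SREBP target, read 40.55, 30.59 and 45.63 FPKM in controls and 41.57, 31.22 and 47.42 FPKM in the Emp1-deficient group, again lowest in both libraries numbered 2 (log2 fold change 0.039, interval -0.38 to 0.46). Npc1 and Npc2, which export cholesterol from the lysosome, averaged 13.5 ± 1.22 and 16.2 ± 1.91 FPKM and 51.4 ± 5.21 and 54.8 ± 3.55 FPKM. Soat1, which esterifies cholesterol for storage, averaged 12.7 ± 2.63 and 14.6 ± 3.81 FPKM. All 4 had positive fold changes, as did 43.1% of all tested genes. They were of 0.039 to 0.25 on the log2 scale, and the smallest limma adjusted p among them was 0.416.

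Genes next to these pathways were read from 7 lists with 80 genes, 75 of them tested. By limma 0 passed over all genes, while an unadjusted p under 0.05 was found for 6 that were higher and 12 that were lower, against 6.5% and 9.72% of all tested genes. Without overlap between genotypes were 9 that were higher (12%) and 17 that were lower (22.7%), against 8.91% and 13.2%, and 38.7% had a positive fold change, against 43.1%. In the list of fatty acid synthesis, the main targets of SREBP-1, 7 of 10 tested genes had a negative fold change (30.0% positive, against 43.1% of all tested genes), with a median of -0.080, and 2 were lower without overlap (20%, against 13.2%), shares near the background. Fasn, fatty acid synthase, read 36.76, 31.64 and 39.27 FPKM in controls and 29.43, 20.06 and 26.56 FPKM in the Emp1-deficient group (log2 fold change -0.50, SE 0.15, limma adjusted p = 0.171). Scd2, a desaturase, read 45.35, 40.43 and 55.04 FPKM and then 34.72, 20.30 and 32.89 FPKM (log2 fold change -0.69, SE 0.21, limma adjusted p = 0.172). For both the Emp1-deficient libraries were lower throughout, with replicate 2 lowest in each genotype. Acly, which supplies cytosolic acetyl-CoA and was the most abundant of the list, averaged 94.1 and 95.7 FPKM, and Acss2, which makes it from acetate, 42.6 and 48.2 FPKM.

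Of 11 tested partners and targets of LXR, 8 had a negative fold change (27.3% positive, against 43.1% of all tested genes), with a median of -0.16. Without overlap 5 were lower (45.5%, against 13.2%) and 1 was higher (9.09%, against 8.91%). The higher one was Lpcat3, which remodels phospholipids and was named after its values were seen, at 55.7 ± 3.66 and 65.3 ± 5.07 FPKM. Mylip, a ubiquitin ligase that marks lipoprotein receptors for degradation, read 17.02, 20.34 and 20.25 FPKM in controls and 15.15, 11.99 and 13.51 FPKM in the Emp1-deficient group (log2 fold change -0.47, SE 0.14, limma adjusted p = 0.146). Abca7, a relative of Abca1, averaged 10.5 ± 1.34 and 6.06 ± 1.26 FPKM (log2 fold change -0.71, limma adjusted p = 0.111), and Rxra, an RXR partner of the LXRs, 2.47 and 1.39 FPKM. Of 7 tested oxysterol genes, 6 had a negative fold change (14.3% positive, against 43.1%). Cyp27a1, a mitochondrial sterol hydroxylase, came closest to the threshold of all tested genes in the pathway lists. It read 9.34, 10.20 and 8.78 FPKM in controls and 4.96, 3.24 and 2.72 FPKM in the Emp1-deficient group, 61.4% lower on average (log2 fold change -1.20, SE 0.20, limma adjusted p = 0.0598). Hsd3b7, a bile acid synthesis enzyme, averaged 132 and 113 FPKM without overlap, and Cyp46a1, a sterol hydroxylase best known from brain, 1.41 and 0.543 FPKM with overlap.

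Lipoprotein uptake genes were split, with 4 of 8 tested higher and 4 lower (50% positive, against 43.1%). Vldlr, a lipoprotein receptor, read 61.45, 62.98 and 94.39 FPKM in controls and 104.11, 111.74 and 111.56 FPKM in the Emp1-deficient group (log2 fold change 0.60, SE 0.16, limma adjusted p = 0.129), above all controls. Lrpap1, a chaperone of such receptors, averaged 66.2 ± 6.8 and 86.0 ± 6.83 FPKM, also without overlap. Scarb1, a receptor of high-density lipoprotein, was lower without overlap, at 50.1 ± 4.39 and 38.2 ± 2.13 FPKM (limma adjusted p = 0.139).

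Of 14 genes that use isoprenoids, 9 had a negative fold change (35.7% positive, against 43.1% of all tested genes). Icmt, which methylates prenylated proteins at the ER, read 12.42, 15.42 and 13.57 FPKM in controls and 6.67, 8.62 and 7.77 FPKM in the Emp1-deficient group, a clear gap with a log2 fold change of -0.77 (SE 0.15, limma adjusted p = 0.0741). Pdss2, of coenzyme Q synthesis, averaged 9.07 and 6.39 FPKM, and Zmpste24, a protease of prenylated lamin A, was higher at 21.7 and 28.4 FPKM, both without overlap. Rabggtb, a subunit of the Rab geranylgeranyl transferase and the most abundant of the list, averaged 55.9 and 53.4 FPKM. In sterol transfer and lysosome genes, with 7 of 14 higher, Nceh1, a cholesterol ester hydrolase, averaged 46.2 and 34.8 FPKM. The lysosomal membrane gene Lamp2 averaged 104 and 126 FPKM, and Gramd1a, which carries sterol from the plasma membrane to the ER, 120.5 and 140.3 FPKM. These 3 did not overlap between genotypes. In the whole list 2 were higher (14.3%) and 3 lower (21.4%) without overlap, against 8.91% and 13.2% of all tested genes. For SREBP processing and sterol-regulated degradation, with 6 of 11 higher, Rnf139, an ER ubiquitin ligase, averaged 13.2 ± 2.22 and 18.1 ± 1.22 FPKM (log2 fold change 0.44, limma adjusted p = 0.192). Mbtps2, a Golgi protease that releases SREBPs, averaged 12.8 ± 0.147 and 15.7 ± 1.82 FPKM, and Aup1, of the ER degradation machinery, 129 and 143 FPKM. These 3 were higher without overlap (27.3% of the list, against 8.91% of all tested genes). Naming genes by small p-value favours those without overlap.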

How the data were processed

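RNA of sorted HSCs was sequenced in 6 libraries. Per the labels' protocols, miRNeasy-purified RNA was amplified by Geo-seq, a low-input method, before TruePrep V2 library construction. The values the authors deposited are FPKM with 2 decimals. The submitters' processing notes name build mm10 and list Cufflinks 2.1.1, Bowtie 0.12.9, DESeq2 and HTSeq without saying what each did. Amplification of little RNA can add scatter, and FPKM depend on each library's total.

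GENCODE M21 (GRCm38) gave symbols and positions for 55141 identifiers and none for 260. The limma model (version 3.58.1, R 4.3.3, trend and robust, two-sided, 4 residual degrees of freedom) had genotype as its term, a pseudocount of 1 FPKM and Benjamini-Hochberg adjustment over 15723 genes, and was tested on simulated data. Relative depth is the most frequent ratio of FPKM between libraries over low single-exon genes, assuming equal fragment numbers there. Alternatives changed the pseudocount, filter, scaling, gene set, weights or libraries. Members, lists and naming rule were chosen with earlier results of these data known. The rule allowed all members, Emp1, and of each pathway list the 3 smallest p-values and the highest mean, of which part are printed. Full values of Acat2, Fdps, Idi1, Msmo1, Tm7sf2 and Stard4 were added after they were seen. The planned protein comparison was not made.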

Additional observations from a re-analysis of the deposited data

How the results depend on the processing

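Among the 33 genes, 0 were called higher under every alternative run. The number called lower was 0, but 1 (Srebf1) with array weights and 1 when only coding genes with 400 bp or more of exon sequence were tested, and from 0 to 1 on leaving out each replicate in turn. Genes without overlap, 2 higher and 3 lower, came to 1 higher and 4 lower after rescaling to TPM, where Lbr overlapped. With the filter at 5 FPKM, which drops Abca1 and Nr1h3, 1 was lower. Leaving out each replicate gave 3 to 6 higher and 3 to 6 lower, and leaving out both libraries numbered 2, chosen after seeing the data, gave 6 and 6. Fewer libraries overlap less by construction. Of the 33 genes, 24 kept the sign of their fold change in every alternative and 9 changed it in at least 1, with log2 fold changes no larger than 0.26 in size (Hmgcs1, Hsd17b7, Idi1, Lss, Mvd, Mvk, Sc5d, Soat1 and Stard4). Over all genes, calls ran from 1 to 70 higher and from 0 to 142 lower around 25 and 17, being most numerous with coding genes alone. The median of all genes was -0.098 after rescaling to TPM and -0.00088 with quantile normalization.

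Over all tested genes, same-numbered deviations correlated at -0.108, 0.0859 and -0.0523, and only control replicate 2 correlated best with its own number. This shows no pairing over all genes but cannot decide whether same-numbered libraries were handled together. With the replicate block, Srebf1 had a log2 fold change of -1.02 and a limma adjusted p of 0.151, 0 members were called higher and 0 lower, but 4 members were higher at an unadjusted p under 0.05 where none was without it. The limma adjusted p of Fdps was 0.149 with the block and 0.689 without, and that of Msmo1 0.166 and 0.640. With the block, all genes gave 6 higher and 2 lower calls.

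With 3 libraries per genotype the 95% intervals of the enzymes reach down to -0.93 and up to 1.71 on the log2 scale, so differences inside them could not be resolved. Abca1 and Nr1h3 lie near the low end of the tested levels, where the pseudocount sets much of the fold change.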
